A study of Mus musculus with 19 samples.

Results

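Neuropeptides are short signalling peptides that sensory neurons cut from larger precursors, store in dense-core vesicles and release from their endings in the skin, joint and spinal cord. In the dorsal root ganglia, which hold the cell bodies of the neurons that innervate the limb and trunk, calcitonin gene-related peptide and substance P mark peptidergic nociceptors and act on blood vessels and immune cells as well as on spinal neurons. Somatostatin and the natriuretic peptide encoded by Nppb mark a population of itch-related neurons, and galanin, neuropeptide Y and vasoactive intestinal peptide are best known here for their induction after nerve injury. The 10 genes described are Calca, Calcb, Tac1, Adcyap1, Sst, Nppb, Gal, Npy, Nts and Vip, taken by symbol from the deposited gene table. All 10 were found, as 10 rows of 36682 genes, and all 10 passed the filter on low counts that left 22778 genes for testing.

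The libraries are poly(A) RNA from mouse L3-L5 dorsal root ganglia on the side of the operated knee, with the ganglia of a sample pooled. All 19 samples come from male mice homozygous for the macrophage Fas-induced apoptosis (MaFIA) transgene, in which a Csf1r promoter drives an inducible Fas suicide receptor in cells of the macrophage lineage, so the vehicle groups carry the transgene too and no wild-type group enters the comparisons. AP20187 is the dimerizer that activates that receptor. It or vehicle was given intraperitoneally once daily on 5 consecutive days. The 4 groups are mice 8 weeks after destabilization of the medial meniscus (DMM), a knee surgery that induces osteoarthritis, given AP20187 (n = 5) or vehicle (n = 5), and age-matched naive mice given AP20187 (n = 4) or vehicle (n = 5). The labels number the samples (58 to 62, 32 to 34 with 63 and 64, and 1 to 5 without a number 2 in the naive AP20187 group) but say no more about the animals, so the p-values measure the spread between these samples.

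Library totals lay between 60984830 and 74691396 counts. DRG neuron genes were present in every library, and their share of the counts moved with the groups. The summed level of 12 pan-neuronal genes (among them Tubb3, Uchl1, Snap25 and Isl1) was 0.628% to 1.11% of counts in naive vehicle and 0.487% to 0.953% in DMM vehicle libraries. With AP20187 it was 0.184% to 0.739% in naive and 0.185% to 0.539% in DMM libraries. Granulocyte-precursor genes (10, among them Mpo and Elane) summed to 355 to 6742 CPM (counts scaled to library size) with vehicle in DMM mice and to 15060 to 25779 CPM with AP20187. In naive mice the same sum was 718 to 1979 CPM with vehicle and 6931 to 24446 CPM with AP20187. Skeletal muscle genes (8) stood at 1612 to 2482 CPM in all 4 naive AP20187 libraries, against 12.3 to 421 CPM in naive vehicle libraries. In DMM mice they were at 17.5 to 151 CPM with AP20187 and at 15.4 to 238 CPM in 4 vehicle libraries, but at 1832 CPM in vehicle library 32. The level of Csf1r, the gene whose promoter drives the transgene, was not called different with AP20187: its mean was 69.1 against 70.0 CPM in DMM mice and 69.4 against 50.9 CPM in naive mice, with adjusted p of 0.982 and 0.554. The summed level of 12 macrophage genes, Csf1r among them, was 2343 to 4876 CPM with AP20187 against 437 to 3615 CPM with vehicle in DMM mice, and 1679 to 3462 against 415 to 1338 CPM in naive mice, without overlap there. Of the 12, 2 were called higher in DMM (median 1.06) and 4 in naive mice (median 1.38), and none lower, against 11.3% and 8.61% of all genes called higher. On scaling to the pan-neuronal list 10 and 8 of the 12 were called higher, against 44.7% and 24.3% of all genes. In bulk RNA, fewer neurons and less RNA per neuron cannot be told apart, and neuron content enters only through the scaling to the neuronal list, whose values follow those of the members and of the other lists. The part of the macrophage, granulocyte and muscle genes was not tested.

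The promoter sequences of 4 members are shown first: Sst, which fell in both AP20187 comparisons, Nts, which rose in one, and Calca and Tac1, which were not called but varied together over the libraries. They are RefSeq sequences in the build GRCm38.p6, the 250 bases upstream of the annotated start, on the coding strand and 5′ to 3′. Of the 10 members, 9 had a promoter in the table, all but Calcb. Capitals mark a motif: the cyclic AMP response element TGACGTCA in Sst, the AP-1 element TGANTCA in Nts and the E-box CACGTG in Tac1. The Sst window is chr16:23890845-23891094 on the minus strand, the Nts window chr10:102490419-102490668 on the minus strand, the Tac1 window chr6:7554811-7555060 on the plus strand and the Calca window chr7:114636358-114636607 on the minus strand.
Sst: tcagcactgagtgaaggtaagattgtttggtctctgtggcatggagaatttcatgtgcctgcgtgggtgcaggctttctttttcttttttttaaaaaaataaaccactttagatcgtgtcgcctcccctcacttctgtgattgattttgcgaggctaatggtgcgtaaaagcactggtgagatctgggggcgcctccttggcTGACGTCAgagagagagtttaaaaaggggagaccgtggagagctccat
Nts: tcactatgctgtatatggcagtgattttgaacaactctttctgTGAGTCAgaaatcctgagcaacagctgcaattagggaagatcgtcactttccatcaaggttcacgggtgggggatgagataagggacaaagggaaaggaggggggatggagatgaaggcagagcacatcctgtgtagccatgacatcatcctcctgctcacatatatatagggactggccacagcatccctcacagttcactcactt
Tac1: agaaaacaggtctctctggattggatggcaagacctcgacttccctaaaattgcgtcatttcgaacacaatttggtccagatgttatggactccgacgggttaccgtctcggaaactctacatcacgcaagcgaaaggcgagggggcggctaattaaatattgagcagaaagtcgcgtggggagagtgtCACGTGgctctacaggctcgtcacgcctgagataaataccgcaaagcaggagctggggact
Calca: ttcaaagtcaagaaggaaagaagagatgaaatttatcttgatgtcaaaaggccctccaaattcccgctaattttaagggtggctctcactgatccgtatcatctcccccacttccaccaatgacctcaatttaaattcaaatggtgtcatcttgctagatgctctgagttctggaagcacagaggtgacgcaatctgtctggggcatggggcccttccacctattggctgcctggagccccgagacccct

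Both strands were searched for 5 motifs, and a match is a description of these letters only. The full element TGACGTCA was found in Sst alone of the 9 members, beginning 48 bases before the start. It was found in 1.62% of 27025 promoters, each gene entering with a single promoter. Its core TGACGT, which the full element contains, was found in Adcyap1, Sst and Vip and in 6.56% of those promoters. TGANTCA was found in Nts, beginning 207 bases before the start, and in 6.87% of promoters, and CACGTG in Tac1, beginning 61 bases before the start, and in 6.05%. TATAAA was found in Adcyap1, Nppb and Vip and in 13.0% of promoters. Members were scored on every annotated start site, and Adcyap1 held TATAAA only at start site 2. The Calca window held none of the 5.

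Levels of the genes per length, as the FPKM (fragments scaled by transcript length and library size) that the authors deposited, spanned about 4 orders of magnitude. In naive vehicle ganglia Calca stood at 611 ± 123 FPKM (SD, n = 5), rank 45 of all genes, and made up 76.2% of the summed FPKM of the 10. Calcb followed at 71.3 ± 11.0 FPKM and Tac1 at 59.5 ± 11.7 FPKM, whose ranges overlapped. Adcyap1 stood at 23.1 ± 2.6 FPKM, apart from both neighbours. Nts (9.58 ± 4.28 FPKM), Sst (8.86 ± 1.39), Gal (8.05 ± 3.21) and Nppb (7.36 ± 3.40) overlapped from each to the next. Npy was at 0.682 ± 0.341 FPKM and Vip at 0.0592 ± 0.0317 FPKM, with 12 to 43 and 6 to 23 counts a library. The order below Tac1 changed with AP20187: Nts stood next after Tac1, and Sst below Gal, in both AP20187 groups, at 18.3 ± 6.4 and 2.91 ± 1.40 FPKM in naive (n = 4) and 28.5 ± 8.3 and 2.78 ± 0.80 FPKM in DMM mice (n = 5). In 3 of the 4 naive AP20187 libraries (1, 3 and 4) FPKM values were low relative to the counts, with 1.08 to 1.11 times the count share per FPKM of the median library, against 0.994 to 1.01 in the other 16. Differences between groups were therefore tested on counts and are given in CPM.

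**Figure D1:**
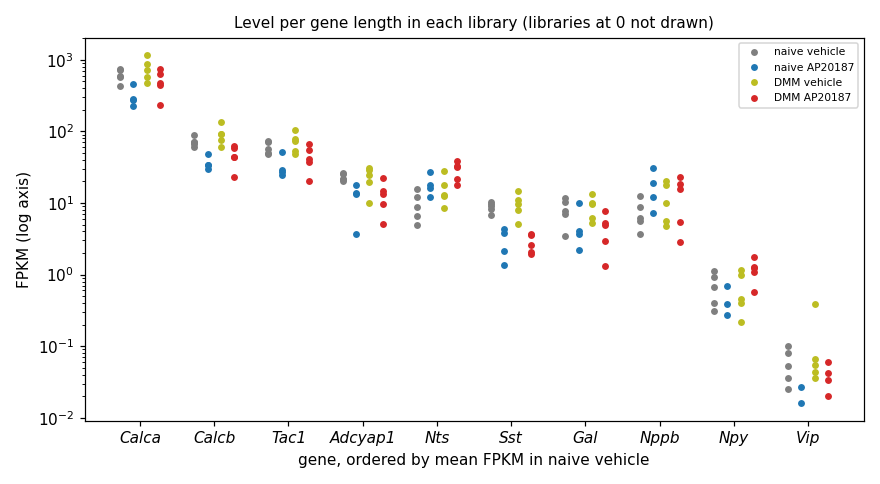
FPKM of each gene in each library (dots, log axis), genes ordered by their mean in naive vehicle and coloured by group; libraries at 0 are not drawn. Calca lies between 229 and 1164 FPKM in all 19 libraries, and Nts lies above Sst in every library except naive vehicle libraries 4 and 5.

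The first question was how ganglia of AP20187-treated and vehicle-treated mice differed in DMM mice. Sst and Calcb fell and no member rose. The log2 fold change was negative for 7 of the 10 genes, with a median of -0.74 against -0.10 over all 22778 genes tested. The count of 2 called genes out of 10 compares with 23.8% of all genes called in this comparison (12.4% lower and 11.3% higher), so the share called among the 10 was close to the background. Only Sst had groups that did not overlap, against 12.9% of all genes. In naive mice 8 of the 10 log2 fold changes were negative, with a median of -0.76 against -0.07 over all genes. Sst fell and Nts rose there, 2 of 10 against 11.2% of all genes (2.57% lower and 8.61% higher), and 3 genes (Sst, Calcb and Adcyap1) had groups that did not overlap, against 15.5% of all genes. These background counts rest in part on single libraries. The 5410 genes called in DMM mice became 3212 without AP20187 library 58, 3419 without vehicle library 32 and 3407 without vehicle library 33. The 2548 called in naive mice became 1191 or 994 without AP20187 library 1 or 3, and 1368, 1292 or 1566 without vehicle library 1, 2 or 5.

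**Figure D2:**
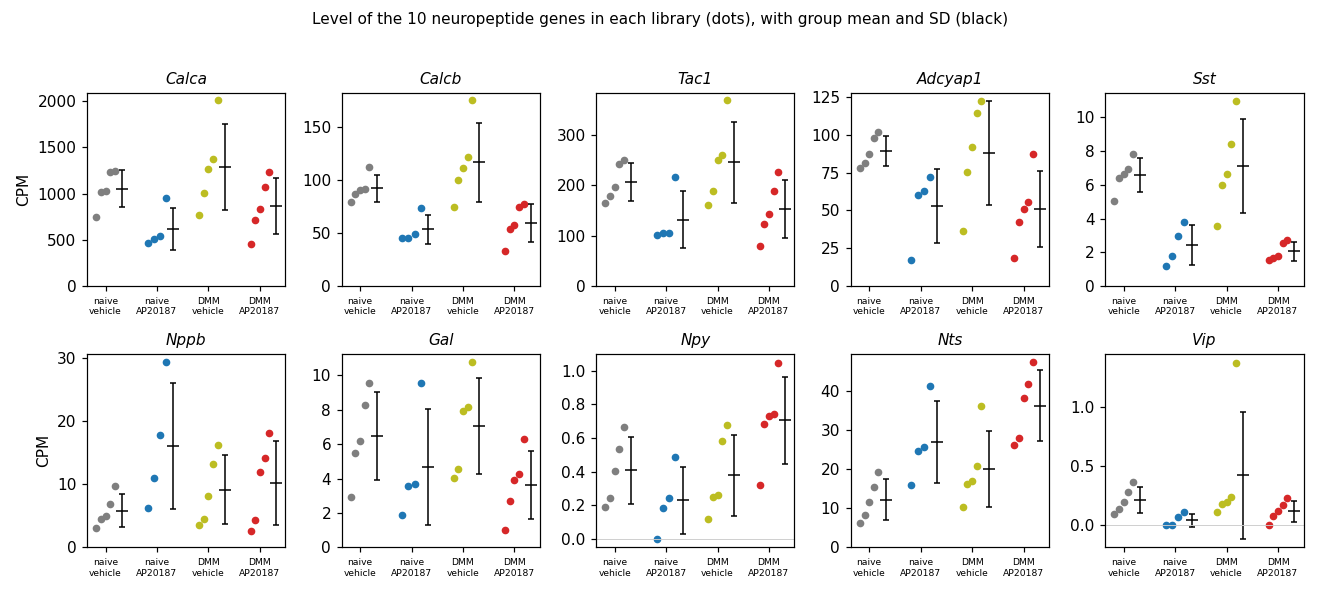
CPM of each gene in each library (dots) by group, with the group mean and SD in black; each panel has its own linear axis. Sst is separated between vehicle and AP20187 in both naive and DMM mice, and the other panels show overlapping groups in one pair or both.

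Calca encodes calcitonin and, by alternative splicing, the alpha form of calcitonin gene-related peptide, which the gene-level counts do not separate. It stood at 1266, 1010, 771, 2006 and 1373 CPM in DMM vehicle libraries 32, 33, 34, 63 and 64, and at 718, 1073, 1230, 834 and 460 CPM in DMM AP20187 libraries 58 to 62. The groups overlapped and the difference, -0.57 ± 0.28 (log2, SE), did not pass the test (adjusted p = 0.149). In naive mice Calca was at 1239, 1030, 1231, 744 and 1018 CPM with vehicle and at 950, 467, 537 and 514 CPM with AP20187. There 3 of the 4 AP20187 libraries lay below every vehicle library and library 1 lay inside their range, and the difference was -0.77 ± 0.31 (adjusted p = 0.107). It passed in naive mice under limma voom with sample weights (-0.88, adjusted p = 0.0223) and on filtered log2(FPKM + 1) (-0.99, adjusted p = 0.0329) and log2(FPKM + 0.1) (adjusted p = 0.0335), while voom put the DMM difference at -0.046 (adjusted p = 0.890).

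Calcb, a neighbouring gene on chromosome 7, encodes the beta form of the peptide. It stood at 122, 100, 74.4, 175 and 112 CPM in DMM vehicle libraries 32, 33, 34, 63 and 64 and at 54.3, 74.4, 77.9, 57.2 and 33.5 CPM in DMM AP20187 libraries 58 to 62. Library 34 lay within the AP20187 range and the other 4 vehicle libraries above it. The mean was 59.5 ± 17.8 against 117 ± 37 CPM (SD, n = 5 each), a difference of -0.97 ± 0.24 on the log2 scale (1.96-fold lower, adjusted p = 0.00797), and the call was kept on leaving out each library. On scaling to the pan-neuronal list the call ended and the direction turned (0.37, adjusted p = 0.471). In naive mice Calcb was at 79.6 to 113 CPM with vehicle (median 90.2) and at 45.3, 45.6, 48.9 and 74.1 CPM with AP20187. The groups did not overlap, yet the difference of -0.78 ± 0.25 missed the threshold (adjusted p = 0.0505), and it passed without AP20187 library 1 (-0.98, adjusted p = 0.0408) and under 9 of the 11 alternatives that left out no single library. The files place Calca at chr7:114230713-114235592 and Calcb at chr7:114317878-114322600 (GRCm39), and their GENCODE transcripts share exact runs of up to 61 bases, so a small part of the reads could be assigned to either.

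Tac1 encodes the precursor of substance P and neurokinin A, the peptides that act on tachykinin receptors. In DMM mice it stood at 260, 189, 162, 369 and 251 CPM with vehicle (libraries 32, 33, 34, 63 and 64) and at 123, 189, 228, 144 and 79.6 CPM with AP20187 (libraries 58 to 62), with overlap. The difference was -0.69 ± 0.29 (adjusted p = 0.0847), and among the fits that left out a library it passed only without AP20187 library 60 (-0.88, adjusted p = 0.0485). In naive mice Tac1 was at 165 to 250 CPM with vehicle and at 216, 101, 105 and 105 CPM with AP20187, a difference of -0.65 ± 0.30 (adjusted p = 0.167). It too passed in naive mice under voom (-0.80, adjusted p = 0.0417) and on filtered log2(FPKM + 1) (-0.87, adjusted p = 0.0442) and log2(FPKM + 0.1) (adjusted p = 0.0446), while voom put the DMM difference at -0.21 (adjusted p = 0.517). Library 1 of the naive AP20187 group was again the high one.

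Adcyap1 encodes pituitary adenylate cyclase-activating polypeptide, a relative of vasoactive intestinal peptide. It stood at 122, 114, 91.6, 75.6 and 36.2 CPM in DMM vehicle libraries 32, 33, 34, 63 and 64, where library 64 was the lowest, and at 18.5, 51.3, 55.3, 87.3 and 42.6 CPM in DMM AP20187 libraries 58 to 62. The difference of -0.79 ± 0.38 did not pass (adjusted p = 0.141). It passed without vehicle library 64 (-0.98, adjusted p = 0.0442) or without AP20187 library 61 (-1.07, adjusted p = 0.0488). Against vehicle libraries 32 to 34 alone it was -1.10 (adjusted p = 0.0363) and against libraries 63 and 64 alone -0.09 (adjusted p = 0.956). In naive mice the vehicle libraries held 78.0 to 101 CPM and the AP20187 libraries 17.1, 60.4, 62.6 and 72.2 CPM, without overlap, and the difference was -0.75 ± 0.41 (adjusted p = 0.230).

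Sst, the gene of the inhibitory peptide somatostatin, showed the most separated groups of the 10. It stood at 8.37, 5.98, 3.56, 10.9 and 6.65 CPM in DMM vehicle libraries 32, 33, 34, 63 and 64 and at 1.80, 1.54, 2.58, 2.71 and 1.65 CPM in DMM AP20187 libraries 58 to 62. Every AP20187 library lay below every vehicle library. The mean was 2.06 ± 0.55 against 7.10 ± 2.75 CPM (SD, n = 5 each), a log2 difference of -1.79 ± 0.32 (3.45-fold lower, adjusted p = 0.00123). In naive mice Sst was at 6.64, 6.38, 6.91, 5.03 and 7.79 CPM with vehicle and at 3.82, 1.20, 1.76 and 2.98 CPM with AP20187, again without overlap. The mean was 2.44 ± 1.18 (n = 4) against 6.55 ± 1.00 CPM (n = 5), a difference of -1.42 ± 0.34 (2.68-fold lower, adjusted p = 0.0131). Both calls were kept on leaving out each library, with adjusted p of 0.000986 to 0.00523 in DMM and 0.0121 to 0.0495 in naive mice. Both were lost on scaling to the pan-neuronal list, where the differences were -0.50 (adjusted p = 0.286) and -0.61 (adjusted p = 0.243).

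Nppb, which encodes B-type natriuretic peptide, is co-expressed with Sst in itch-related neurons but was not called lower with AP20187 here. In DMM mice it was at 8.08, 4.54, 3.63, 16.3 and 13.2 CPM with vehicle (libraries 32, 33, 34, 63 and 64) and at 11.9, 18.1, 14.2, 4.37 and 2.55 CPM with AP20187 (libraries 58 to 62). The ranges lay on top of each other and the difference was 0.16 ± 0.53 (adjusted p = 0.861), or 1.07 under voom with sample weights (adjusted p = 0.0796). In naive mice the vehicle libraries held 6.94, 3.03, 9.73, 4.99 and 4.56 CPM and the AP20187 libraries 29.3, 17.8, 11.0 and 6.17 CPM. The log2 difference of 1.46 ± 0.56 did not pass (adjusted p = 0.0980), and it was 0.99 (adjusted p = 0.320) without library 1. It passed under 2 of the 11 alternatives that left out no single library, DESeq2 and scaling to the pan-neuronal list. Of 8 other genes of the itch-related neurons, Hrh1, a histamine receptor, fell in DMM mice (-0.80 ± 0.24, adjusted p = 0.0223), with its sign turned on the pan-neuronal scaling, against 12.4% of all genes lower there, and none passed in naive mice, where the leukotriene receptor gene Cysltr2 was at -1.34 ± 0.43 (adjusted p = 0.0512). The interleukin-31 receptor gene Il31ra was at -1.58 ± 0.63 in DMM and -1.27 ± 0.67 in naive mice (adjusted p = 0.0714 and 0.214). Scaled to the pan-neuronal list, Osmr and S1pr1 were called higher in both comparisons and Jak1 in DMM mice. These 3 and 2 of the 8 compare with 44.7% and 24.3% of all genes called higher on that scaling.

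Nts encodes neurotensin, a peptide first known from the brain and gut, and was the only member that rose. In naive mice it stood at 15.5, 11.6, 19.3, 6.28 and 8.38 CPM with vehicle and at 41.3, 24.5, 25.5 and 16.1 CPM with AP20187. Library 5 of the AP20187 group lay inside the vehicle range and the other 3 above it. The mean was 26.9 ± 10.5 (n = 4) against 12.2 ± 5.3 CPM (n = 5), a log2 difference of 1.14 ± 0.36 (2.20-fold higher, adjusted p = 0.0455). That call ended in 7 of the 9 leave-one-out fits, those without AP20187 library 1, 3 or 4 or vehicle library 1, 2, 4 or 5, with adjusted p of 0.0634 to 0.180. In DMM mice Nts stood at 17.0, 16.2, 10.3, 36.1 and 20.7 CPM with vehicle (libraries 32, 33, 34, 63 and 64) and at 38.1, 41.7, 47.3, 28.0 and 26.1 CPM with AP20187 (libraries 58 to 62). Vehicle library 63 was the one library that overlapped the AP20187 range. The difference of 0.85 ± 0.34 did not pass (adjusted p = 0.0721). Without library 63 it was 1.17 (adjusted p = 0.0220), against libraries 32 to 34 alone 1.32 (adjusted p = 0.00987), and against libraries 63 and 64 alone 0.40 (adjusted p = 0.662).

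The 3 genes best known from nerve injury showed no called difference. Gal, the gene of galanin, was at 4.03 to 10.8 CPM in DMM vehicle and 1.00 to 6.31 CPM in DMM AP20187 libraries (-0.96 ± 0.47, adjusted p = 0.140), and at 2.92 to 9.57 CPM in naive vehicle and 1.86 to 9.58 CPM in naive AP20187 libraries (-0.48 ± 0.49, adjusted p = 0.534). Npy, the gene of neuropeptide Y, did not exceed 1.05 CPM in any library. Its difference was 0.90 ± 0.71 in DMM (adjusted p = 0.390) and -0.83 ± 0.77 in naive mice (adjusted p = 0.484). Vip, the gene of vasoactive intestinal peptide, was at 0 to 0.371 CPM in 18 libraries and at 1.38 CPM in DMM vehicle library 63, and its differences of -1.82 ± 1.02 in DMM and -2.21 ± 1.15 in naive mice had adjusted p of 0.206 and 0.210. Without library 63 the DMM difference of Vip was -0.63. A count of 0, seen for Vip in 3 AP20187 libraries and for Npy in 1, allows up to 3 counts, 0.0439 to 0.0519 CPM in those libraries, which covers counting error only.

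Sympathetic neurons also make neuropeptide Y. Of 9 markers of that cell type 5 could be tested. The summed level of all 9 was 94.7 to 165 CPM in naive vehicle and 41.5 to 89.9 CPM in naive AP20187 libraries. It was 54.3 to 127 CPM in DMM vehicle and 23.3 to 74.8 CPM in DMM AP20187 libraries. The 5 tested had a median log2 fold change of 0.29 in DMM mice, with 1 called lower, against 12.4% of all genes. The median was -0.27 in naive mice, with none called. A sum weighs the most abundant genes most, and in DMM mice sum and median differed in direction. Hand2 and Phox2a were at 0 in all DMM vehicle and all naive AP20187 libraries, and Dbh in the latter. Their part in the Npy values was not tested. Of 12 genes known for their response to nerve injury, Csf1 rose in DMM (0.94 ± 0.18, adjusted p = 0.00193) and naive mice (1.00 ± 0.19, adjusted p = 0.00313). Gap43, a growth-cone protein gene, fell in DMM mice (-1.12 ± 0.26, adjusted p = 0.00581), and Atf3, the transcription factor gene induced in injured neurons, rose in naive mice (1.10 ± 0.25, adjusted p = 0.00984). These were 1 higher and 1 lower in DMM mice, against 11.3% and 12.4% of all genes, and 2 higher in naive mice, against 8.61%. On the pan-neuronal scaling none was lower, with Gap43 at 0.080 in DMM mice (adjusted p = 0.805). Called higher were then 5 of 12 in DMM (Csf1, Atf3, Jun, Stmn4 and Flrt3) and 4 in naive mice (Csf1, Atf3, Jun and Il6). Of all genes 44.7% and 24.3% were called higher on that scaling. The medians of the 12 were 0.75 and 0.45, below the median gene.

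Scaling each library to its pan-neuronal counts, in place of the whole library, changed which members were called. The median of all genes then stood at 1.21 in DMM and 0.97 in naive mice, so a log2 fold change is read against that shift. Over all 23106 genes tested on this scaling, 44.7% were called higher and 0.32% lower in DMM mice (45% in all), and 24.3% higher and 0.446% lower in naive mice (24.8% in all). Nts rose in both comparisons, by 2.22 in DMM (adjusted p = 0.00693) and by 2.19 in naive mice (adjusted p = 0.0172). Per 1000 pan-neuronal counts, Nts had 5.22 to 22.1 counts in DMM AP20187 against 1.28 to 4.65 in DMM vehicle libraries, without overlap. In naive mice it had 2.07 to 12.6 with AP20187 against 0.754 to 2.79 with vehicle, with overlap. Npy in DMM (2.34, adjusted p = 0.0161) and Nppb in naive mice (2.57, adjusted p = 0.0303) were the other calls. Calca, Calcb, Tac1 and Gal turned from negative to positive in both comparisons, at 0.20 to 0.72, and Adcyap1 in DMM mice at 0.45, none past the threshold and all below the shift of the median gene. Sst stayed negative.

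**Figure D3:**
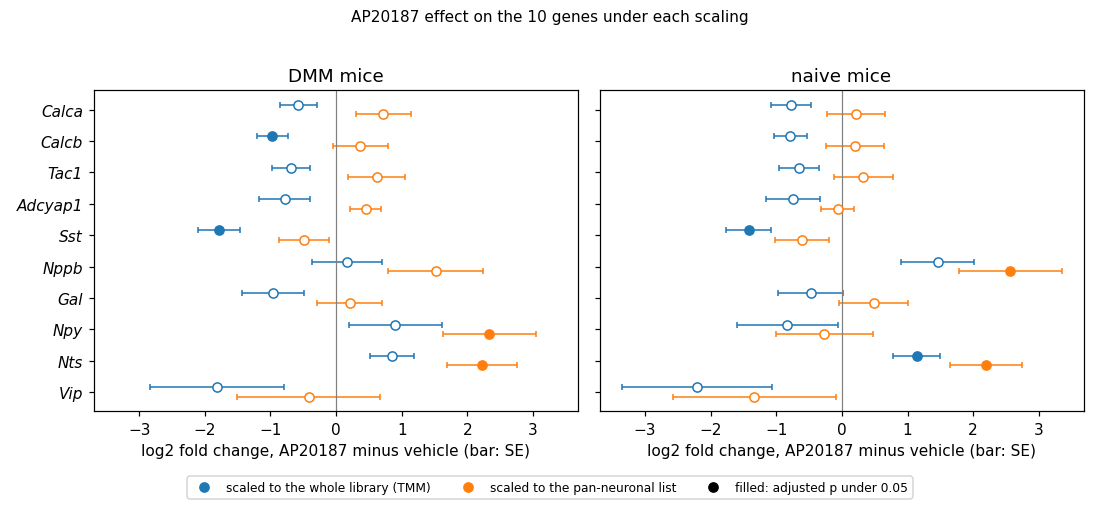
Log2 fold change of each gene, AP20187 minus vehicle, with its SE, in DMM (left) and naive mice (right), scaled to the whole library (blue) or to the pan-neuronal list (orange); filled points have adjusted p under 0.05. Sst is the one gene called in both panels under the first scaling and Nts the one called in both under the second.

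Ratios between members within a library do not depend on the scaling. The pairs given here were chosen with the values known and are descriptions without a test. The FPKM ratio of Nts to Sst was 0.621 to 1.61 in naive vehicle and 1.17 to 1.91 in DMM vehicle libraries. With AP20187 it was 3.13 to 11.9 in naive and 5.97 to 15.7 in DMM libraries, so all 9 AP20187 libraries lay above all 10 vehicle libraries. The ratio of Calca to Nts separated them as well, at 41.2 to 90.1 with vehicle and 13.1 to 23.8 with AP20187. The ratio of Calca to Tac1 stayed between 8.88 and 11.8 in all 19 libraries, with a coefficient of variation of 8.77%, while Calca and Tac1 themselves varied by 39.3% and 38.1%. The ratio of Calca to Calcb was 9.93 to 11.9 in DMM AP20187 and 7.57 to 9.24 in DMM vehicle libraries, which did not overlap, whereas 7.73 to 9.62 in naive AP20187 lay within the 6.44 to 10.3 of naive vehicle libraries.

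**Figure D4:**
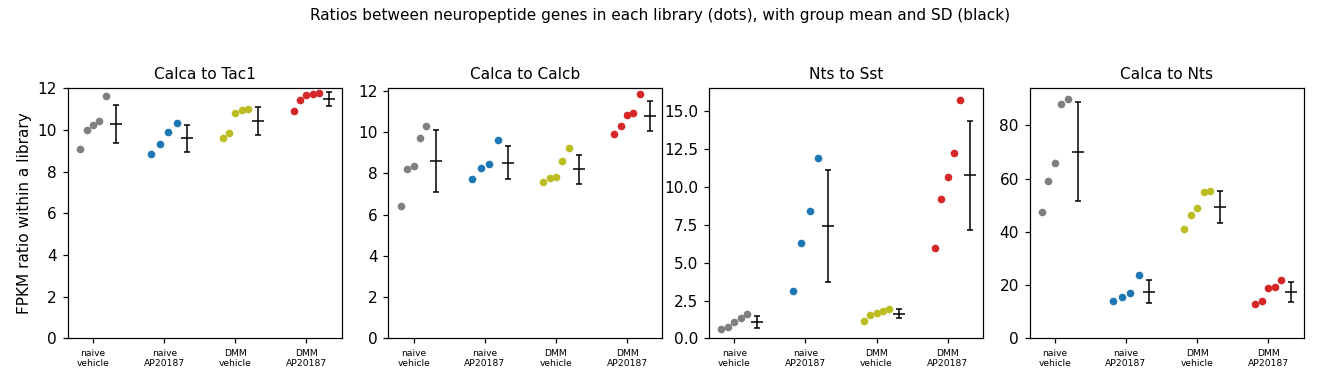
FPKM ratios between pairs of genes in each library (dots) by group, with the group mean and SD in black; axes start at 0. Nts to Sst is above 3 in every AP20187 library and below 2 in every vehicle library, and Calca to Tac1 stays between 8.88 and 11.8 throughout.

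The second question was how DMM and naive mice differed. No member was called with vehicle, where no gene of the 22778 was called (0%) by edgeR and the adjusted p of all 10 was 1. With vehicle libraries 63 and 64 as the only DMM vehicle libraries, 541 of 24459 genes were called. The log2 differences, DMM minus naive, ran from -0.11 ± 0.71 for Npy to 0.95 ± 0.99 for Vip. By edgeR 1 member, Nts, had an unadjusted p under 0.05, with a log2 difference of 0.72 ± 0.34 and an unadjusted p of 0.0471. No member had groups that did not overlap, against 0.237% of all genes. DESeq2 called no member either. With AP20187 no member was called, against 0.702% of all genes (0.439% lower and 0.263% higher), and no member had groups that did not overlap, against 5.9%. Those 160 genes became 64, 43, 53 or 64 without DMM AP20187 library 58, 59, 60 or 62, 269 without library 61, and 63 or 84 without naive AP20187 library 1 or 4. The differences ran from -0.65 ± 0.56 for Nppb (adjusted p = 0.583) to 1.62 ± 0.79 for Npy (adjusted p = 0.308), and no unadjusted p was under 0.05. Limma on log2(FPKM + 1) called 1 member there, Npy, and 1262 of 17596 genes in all. DESeq2 called no member and 1109 of 22778 genes. These comparisons share their libraries with the AP20187 comparisons.

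The third question was whether the AP20187 effect differed between DMM and naive mice. No member passed the interaction test, against 0.114% of all genes (0.0483% higher and 0.0659% lower), and no member had an unadjusted p under 0.05. The 26 genes called became 12 to 16 without any one of the DMM AP20187 libraries, 13 without DMM vehicle library 63, 16 or 17 without naive AP20187 library 1 or 3, 57 without naive AP20187 library 5, and 13 to 14 without naive vehicle library 1, 2, 4 or 5. The differences of effects, DMM minus naive, ran from -1.29 ± 0.77 for Nppb (adjusted p = 0.772), which was -0.13 under voom, to 1.73 ± 1.05 for Npy (adjusted p = 0.776). The calls of Calcb in DMM mice alone and of Nts in naive mice alone are therefore not shown to differ, at -0.19 ± 0.34 (adjusted p = 0.953) and -0.29 ± 0.49 (adjusted p = 0.951).

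Of 15 genes of the machinery that cuts, sorts and releases the peptides, 6 fell with AP20187 in DMM mice and 9 did not pass, with a median of -1.24 against -0.10 over all genes, of which 12.4% fell. On the pan-neuronal scaling none of the 15 passed (median -0.043 against 1.21 over all genes), and of the 6 that fell Cpe (0.32) and Scg2 (0.045) turned positive. Cpe, the carboxypeptidase that trims peptide ends, fell by 0.98 ± 0.23 on the log2 scale (adjusted p = 0.00607) and Pcsk1n, an inhibitor of the prohormone convertase of Pcsk1, fell by 1.37 ± 0.34 (adjusted p = 0.00892). Scg3, a granin of the dense-core vesicle, was at -1.47 ± 0.43 (adjusted p = 0.0218), and Scg2, Cadps and Ptprn2 were the others. None of the 15 passed in naive mice, with a median of -0.69. The pan-neuronal list itself had 9 of 12 genes lower in DMM (median -1.33) and none called in naive mice (median -0.77). Peptidergic nociceptor genes other than the peptides had 6 of 11 lower in DMM mice, among them Trpv1, the capsaicin receptor gene (-1.70 ± 0.48, adjusted p = 0.0181), and Gfra3, a neurotrophic factor receptor gene (-1.81 ± 0.36, adjusted p = 0.00238). Non-peptidergic nociceptor genes had 7 of 8 lower, among them Mrgprd (-2.38 ± 0.62, adjusted p = 0.0119) and P2rx3 (-1.74 ± 0.45, adjusted p = 0.0110). None of either list passed in naive mice. The share of all genes called lower was 12.4% in DMM and 2.57% in naive mice, and the medians of the lists were -1.67 and -1.78 in DMM mice. On the pan-neuronal scaling none of the 11 passed in DMM mice (Trpv1 -0.54, adjusted p = 0.127, and Gfra3 -0.52, adjusted p = 0.137). Of the 8, 2 were lower there, against 0.32% of all genes, Mrgprd among them (-1.24, adjusted p = 0.0237).

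Of 27 receptor genes of the 10 peptides 25 were tested, and in DMM mice 5 rose and 5 fell, while in naive mice 4 rose and 2 fell. Over all genes 11.3% rose and 12.4% fell in DMM and 8.61% and 2.57% in naive mice. The list medians were -0.077 and -0.35, against -0.10 and -0.07 over all genes. Calcrl, the subunit shared by receptors of calcitonin gene-related peptide and adrenomedullin, had mean levels of 50.2 against 19.5 CPM in DMM mice (1.36 ± 0.31, adjusted p = 0.00530) and 38.2 against 17.1 CPM in naive mice (1.16 ± 0.32, adjusted p = 0.0262). Sort1, a sorting receptor that also binds neurotensin, was at 187 against 72.2 CPM in DMM (1.37 ± 0.21, adjusted p = 0.000446) and 119 against 71.4 CPM in naive mice (0.73 ± 0.22, adjusted p = 0.0385). Tacr1, the receptor gene for substance P, rose from 0.396 to 3.15 CPM in naive mice (2.98 ± 0.59, adjusted p = 0.00413) and from 0.157 to 0.743 CPM in DMM mice (2.23 ± 0.57, adjusted p = 0.0109). Vipr1 rose in both as well, and Vipr2 in DMM mice.

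Among the receptors that fell, Galr1 for galanin was lower in both comparisons (-2.33 ± 0.57 in DMM, adjusted p = 0.00839, and -2.09 ± 0.61 in naive mice, adjusted p = 0.0351). Sstr2 for somatostatin was at 0.619 against 3.77 CPM in DMM mice (-2.60 ± 0.52, adjusted p = 0.00254), where Sstr1, Npy2r and Npr2, a natriuretic peptide receptor gene, also fell. Ntsr2 for neurotensin fell in naive mice (-1.23 ± 0.35, adjusted p = 0.0314). On the pan-neuronal scaling 9 receptors were called higher in DMM mice, the 5 above with Galr2, Npr1, Npr3 and Adcyap1r1. In naive mice 5 were called higher, the 4 above with Vipr2. Over all genes 44.7% and 24.3% were called higher on that scaling. The list medians were then 1.22 and 0.69, against 1.21 and 0.97 over all genes. Of those that fell, the ones still called were Sstr2 in DMM (-1.5, adjusted p = 0.00868) and Galr1 in naive mice (-1.5, adjusted p = 0.0470), and Npr2 turned positive in DMM mice (0.51, adjusted p = 0.0974). Sstr5, too low to be tested, had no count in any AP20187 library.

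Other peptide genes were listed for comparison, 18 symbols of which 17 were matched and 13 tested. In DMM mice 1 rose and 2 fell, and in naive mice 1 rose and 3 fell, against 11.3% and 12.4% of all genes in DMM and 8.61% and 2.57% in naive mice. Adm, which encodes adrenomedullin of the calcitonin family, rose in DMM (2.18 ± 0.43, adjusted p = 0.00241) and naive mice (2.61 ± 0.45, adjusted p = 0.00189). Tafa4, a secreted protein gene of C-low-threshold mechanoreceptors, fell in both (-1.40 ± 0.31, adjusted p = 0.00446, and -1.43 ± 0.33, adjusted p = 0.0104). Cartpt fell in both too (-1.5 ± 0.36, adjusted p = 0.00711, and -1.22 ± 0.38, adjusted p = 0.0461), and Cck, the cholecystokinin gene, in naive mice (-2.87 ± 0.66, adjusted p = 0.0106). In that naive comparison, where Ntsr2 fell as well, 6 of 12 central nervous system neuron genes (median -1.61) and 3 of 9 central glial genes (median -1.09) also fell, against 2.57% of all genes, and none of either list was called in DMM mice. On the pan-neuronal scaling 4 of the 12 were lower in naive mice, against 0.446% of all genes. In DMM mice 3 of the 12 were higher, against 44.7%. Of the glial genes none was lower and 1 was higher in each comparison, against 44.7% of all genes in DMM and 24.3% in naive mice. The summed levels were 19.1 to 131 against 80.2 to 178 CPM and 37.3 to 85.7 against 68.3 to 83.5 CPM, AP20187 against vehicle, and their part was not tested. Scaled to the pan-neuronal list, Tafa4 and Cartpt were not called in either comparison, at -0.11 and -0.27 in DMM and -0.68 and -0.39 in naive mice, whereas Adm was called higher in both, Pomc higher in naive mice (2.28, adjusted p = 0.0383) and Cck lower in naive mice (-2.30, adjusted p = 0.0417). Nmb, the neuromedin B gene, was at -0.74 ± 0.27 in DMM mice (adjusted p = 0.0541).

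The genes whose levels followed each member most closely over the 19 libraries were sought among 14473 genes. The points share library composition and depth, so r is a description. Calca and Tac1 were each other's closest gene (Pearson r of log2 CPM 0.975), followed for Calca by Nmb (0.957), Izumo4, Sncg and Calcb (0.925), and for Tac1 by Nmb (0.969). Measured on deviations from the group means, Tac1 was again first for Calca (0.979). Calcb was closest to Tac1 (0.953). Adcyap1 was closest to Trpa1, an ion channel gene of nociceptors (0.975), then to the neuronal genes Isl1 and Syt4, and its r with Calca was 0.423. Sst was closest to Dtd1 (0.954) and Cd151, Nppb to Ndufs4 (0.913) and Cyb5a, Nts to Cdc42 (0.885) and Prpf38a, all genes expressed in many cell types. Gal was closest to Vmn2r57 (0.816) and to Cartpt (0.803). Npy and Vip, at few counts, had no gene above 0.811. The r of Sst with Nts was -0.45 over the libraries and 0.469 on deviations from the group means, and that of Sst with Nppb -0.16 and 0.269, so both signs turned once the group means were removed.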

How the data were processed

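Poly(A) RNA from 19 mouse dorsal root ganglion samples was sequenced with a stranded TruSeq kit, per the labels' protocols. The authors deposited a table of whole-number gene counts with FPKM values beside them, and a second count matrix, in which the 10 genes held the same counts. The submitters' processing notes name cutadapt, HISAT2, StringTie and GRCm39, and the counter, versions and strand setting are not given in the sources used here. Entries without a gene name in the second matrix held 0.414% to 1.72% of its counts and were left out.

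Counts were tested with edgeR 4.0.16 (R 4.3.3): filterByExpr with a minimum count of 10, TMM, a quasi-likelihood fit over the 4 groups with 15 residual degrees of freedom, 5 contrasts, and Benjamini-Hochberg adjustment over 22778 genes, called at 0.05. CPM use TMM library sizes. The SE is the log2 fold change over the root of F. On simulated counts for the DMM contrast (22127 genes) 26.8% of 97 genes changed 2-fold and 72.7% of 99 changed 4-fold were recovered, with 4 false calls.

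Alternatives were DESeq2 1.42.0, no TMM, no filter, limma 3.58.1 on log2(FPKM + 1) and log2(FPKM + 0.1) (filter at 0.5 FPKM in 4 libraries, or none), voom with sample weights, a fit of only the compared groups, pan-neuronal scaling, subsets of DMM vehicle libraries, a replicate block, and leaving out each library. Named genes were the 10 members, up to 4 genes of each of 20 lists with the smallest p, and the 5 closest by r. Further genes of the lists among those called were named after their values were seen. The members and lists were chosen with earlier results of these data known. Promoters are from RefSeq.

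Library totals of 60984830 to 74691396 counts put Vip at 0 to 91 counts a library and Calca at 27058 to 132751, so precision is lowest for Vip and Npy.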

Additional observations from a re-analysis of the deposited data

Results flagged for a closer look

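In each group of 4 or 5 libraries the highest and lowest value of each gene was compared with its neighbours, 40 sets in all, of which 4 held a library set apart (Dixon's test at 95%). Chance sets apart about 1 in 20 such groups. Library 1 of the naive AP20187 group was apart for Calca, at 949.9 CPM against 467 to 537 in the other 3, for Calcb, at 74.1 CPM against 45.3 to 48.9, and for Tac1, at 216 CPM against 101 to 105. These 3 genes move together over the libraries, so the 3 are not separate observations. Vip was at 1.38 CPM in DMM vehicle library 63, against 0.118 to 0.239 CPM in the other 4.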

How the results depend on the processing

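Sst and Calcb in DMM mice and Sst in naive mice kept their direction and call under the alternatives run, except for scaling to the pan-neuronal list. Of 2 members called in DMM mice, voom and DMM vehicle libraries 32 to 34 alone gave 4. Of 2 in naive mice DESeq2 and both filtered FPKM fits gave 4, voom 5 and no count filter 1. In all, voom called 10676 of 22778 genes and libraries 32 to 34 alone 8450 of 23283 in DMM mice. In naive mice DESeq2 called 4356 and voom 4542 of 22778. The filtered FPKM fits called 4354 and 4247 of 17596 there, and no count filter 1793 of 36682. Leaving out a library gave 2 to 3 members in DMM and 1 to 2 in naive mice. FPKM stood low against counts in 3 naive AP20187 libraries, whose part in the FPKM calls was not tested. With AP20187, log2(FPKM + 1) called 1 member between DMM and naive mice, Npy (adjusted p = 0.0411), and 1262 of 17596 genes in all. Nts in naive mice missed the threshold under no TMM, no filter, all 3 FPKM fits, the 2-group fit and the 8 numbered naive libraries (adjusted p up to 0.109). In DMM mice it passed under DESeq2, voom and 2 FPKM fits.

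Scaling to the pan-neuronal list turned the sign in DMM mice of Adcyap1 (0.45), Gal (0.20), Calcb (0.37), Calca (0.72) and Tac1 (0.62), and in naive mice of Gal (0.48), Calcb (0.20), Calca (0.21) and Tac1 (0.33). Nppb in DMM mice was at -0.47 against libraries 63 and 64 alone, -0.15 to 0.48 on leaving out a library and 1.07 under voom. DMM minus naive with vehicle, Vip was at -0.070 with libraries 32 to 34 alone and -0.23 to 1.23 on leaving out a library, and Npy at -0.43 to 0.14. Over all genes, settings that left out no single library called 1156 to 10676 in DMM (5410 in the main analysis) and 1388 to 5729 in naive mice (2548), 0 to 541 between DMM and naive mice with vehicle (0), 21 to 2456 with AP20187 (160), and 6 to 224 for the difference of effects (26). The causes were not tested. Of 518 further values of 23 uncalled differences, 77 changed sign and none its side of the threshold.

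With a replicate block on naive numbers 1, 3, 4 and 5, 3 members were called (Sst, Calcb and Nts), against 2 without the block in the same 8 libraries. Of all 20425 genes 2352 were called with the block and 1388 without it. Same-numbered samples correlated at -0.08 to 0.30 in their deviations, so the numbers were not taken as pairs. The DMM samples share no numbers. Depth limits Vip and Npy most, with at most 91 and 70 counts in a library.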
